A study of Mus musculus with 29 samples.

Results

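The 9 genes described here encode proteins that bind, anchor, traffic or degrade NaV1.5, the cardiac sodium channel. They are Fgf12, Fgf13, Ank2, Ank3, Gpd1l, Nedd4l, Rangrf, Cav3 and Dlg1, and they were taken by name as known regulators of the channel, 9 of 55292 gene names counted. The data are 29 poly-A RNA-seq libraries of atrial tissue, all from males, in 6 groups. A NaV1.5 transgenic line received a high-fat diet (NaV1.5_HFD, 5 libraries) or a regular diet (NaV1.5_RD, 4 libraries), and so did control mice (Ctrl_HFD, 4 libraries, and Ctrl_RD, 4 libraries). The high-fat diet began at 5 weeks of age and lasted 4 weeks. A starting age of 5 weeks is also given for the regular-diet groups, with no length of feeding. In a second experiment, NaV1.5 mice on the high-fat diet for 4 weeks received nicotinamide riboside, a precursor of NAD (NR, 7 libraries), or vehicle (5 libraries). The promoter of the transgene, the form of the channel it encodes, the strain and what the control mice carry are not given in the sources used here.

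NaV1.5 carries the inward sodium current that starts the action potential of atrial myocytes. Its current depends on partner proteins as well as on its own abundance. FGF homologous factors stay inside the cell and shift the voltage at which the channel inactivates, ankyrins and membrane-associated guanylate kinases hold it at defined membrane sites, caveolin-3 places it in caveolae, and the ubiquitin ligase Nedd4-2 marks it for removal from the membrane.

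Total counts ranged from 13189995 to 33061018 per library. The summed level of 7 atrial cardiomyocyte markers was 43600 to 48000 CPM (counts scaled to a common library size with TMM, a correction for composition) in NaV1.5_HFD, 48900 to 60600 in NaV1.5_RD, 46400 to 52400 in Ctrl_HFD and 49700 to 56400 in Ctrl_RD, while 6 ventricular markers summed to 242 to 888 CPM over these groups. A record named flag that the authors added to the annotation had 0 counts in all 29 libraries, so it does not check the transgene. The labels do not say that each library came from a separate mouse, so the p-values rest on the variation among libraries, which may be technical. In whole tissue, fewer cells of a type and less RNA per cell cannot be told apart.

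Of the 9 genes, 8 passed the filter on low counts and were tested. Per kilobase of counted length, which allows genes to be compared, Cav3 had the highest level in Ctrl_RD, at 60.4 ± 1.62 CPM per kilobase (SD, n = 4). Fgf12 followed at 31.4 ± 1.70, Fgf13 at 11.5 ± 1.75, Gpd1l at 11.0 ± 0.724, Dlg1 at 4.86 ± 0.379, Nedd4l at 3.20 ± 0.361, Ank2 at 2.58 ± 0.290 and Ank3 at 1.79 ± 0.308. The library ranges of Fgf13 and Gpd1l overlapped, as did those of Nedd4l and Ank2, and all other neighbours in this order were separated. Cav3 lay above 96.0% of the tested genes and Ank3 above 42.2%. The order of the first and last gene was the same in the other 3 diet groups, but in NaV1.5_HFD Fgf13, at 7.23 ± 1.53, no longer overlapped Gpd1l at 10.05 ± 0.591 and overlapped Dlg1 at 5.02 ± 0.485.

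Rangrf encodes MOG1, which helps the channel reach the cell surface. It is the member that these counts barely measure, with 0 to 7 counts in a library, 66 in all, and 7 of 29 libraries at 0. Per the annotation behind the counts, 1151 of its 1269 counted bases (90.7%, chromosome 11, 68972484 to 68975185, minus strand, GRCm38) overlap Slc25a35 on the opposite strand. Pairs lying over 2 genes were left out and strand was not used, so only 118 bases (9.3%) could collect counts of their own. Slc25a35 had 76 to 255 counts in a library. No level of Rangrf is therefore compared between groups, and the low counts say nothing of how much of its transcript the atria hold.

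Fgf12 (chromosome 16, 28160098 to 28753068, minus strand) and Fgf13 (chromosome X, 59062145 to 59568071, minus strand, both GRCm38) each have 4 start sites in RefSeq, and a count per gene does not separate transcripts by start. The window from 250 bases before to 50 bases after the start that holds most CG dinucleotides is shown for each gene, since the ratio of these 2 related members is followed through the groups. CG dinucleotides are in capitals.
Fgf12, chr16:28564902-28565201, minus strand, GRCm38.p6: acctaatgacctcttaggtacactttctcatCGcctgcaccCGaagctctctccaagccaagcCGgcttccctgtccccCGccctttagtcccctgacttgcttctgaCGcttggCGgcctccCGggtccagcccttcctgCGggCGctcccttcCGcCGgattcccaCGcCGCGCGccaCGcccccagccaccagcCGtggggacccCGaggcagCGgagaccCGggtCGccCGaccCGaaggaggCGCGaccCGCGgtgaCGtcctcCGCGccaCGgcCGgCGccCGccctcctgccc
Fgf13, chrX:59567299-59567598, minus strand, GRCm38.p6: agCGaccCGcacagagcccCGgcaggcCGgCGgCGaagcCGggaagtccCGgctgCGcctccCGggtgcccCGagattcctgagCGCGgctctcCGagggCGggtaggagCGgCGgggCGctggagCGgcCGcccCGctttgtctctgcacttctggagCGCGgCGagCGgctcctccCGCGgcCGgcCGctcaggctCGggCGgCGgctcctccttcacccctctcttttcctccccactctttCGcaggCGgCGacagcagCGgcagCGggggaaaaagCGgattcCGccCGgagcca
The Fgf12 window holds 34 CG dinucleotides, a number that 7.7% of 32851 RefSeq windows of this length reach, and the Fgf13 window holds 40, which 3.9% reach. The other Fgf12 windows hold 18, 29 and 22 and the other Fgf13 windows 3, 6 and 37. The Fgf13 window with 3 (chrX:59585523-59585822) and the Fgf12 window with 18 (chr16:28753194-28753493) lie outside the genes as counted. Fgf13 thus has starts both rich and poor in CG, and the counts do not show which of them were used.

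Fgf12 and Fgf13, both FGF homologous factors, stood lower in NaV1.5 than in control atria on both diets, without passing the adjusted threshold. Of the other 2 factors of the family, Fgf14 was at a log2 difference of 0.27 between NaV1.5 and control over both diets (SE 0.17, edgeR adjusted p = 0.582) and Fgf11 at -0.15 (SE 0.09, adjusted p = 0.531). Fgf12 had 172, 170.3, 177, 185 and 220.1 CPM in NaV1.5_HFD, 160.2, 155, 151 and 182 CPM in NaV1.5_RD, 220.1, 231, 204 and 195 CPM in Ctrl_HFD and 197, 202, 179 and 200.4 CPM in Ctrl_RD. Libraries overlapped between genotypes on each diet, with 1 NaV1.5 library reaching into the control range in both. Averaged over both diets its log2 difference between NaV1.5 and control was -0.25 (SE 0.07, fold 0.841, edgeR adjusted p = 0.100), and it was -0.26 on regular and -0.24 on high-fat diet. Fgf12 passed without NaV1.5_RD replicate 4 (-0.28, adjusted p = 0.0365) or without NaV1.5_HFD replicate 5 (-0.28, adjusted p = 0.0387). Ctrl_HFD replicate 4, listed last of its group, is labelled batch 2 and the other 16 libraries of these 4 groups batch 1, so with batch as a term it carries no weight in any fitted difference.

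Fgf13, described as the main factor of this family in mouse ventricle, had 35.4, 22.1, 23.9, 35.0 and 28.99 CPM in NaV1.5_HFD and 37.4, 39.9, 43.5 and 43.2 CPM in Ctrl_HFD. All 5 NaV1.5_HFD libraries lay below every Ctrl_HFD library. On regular diet it had 38.6, 41.3, 39.9 and 33.7 CPM in NaV1.5_RD and 51.7, 51.1, 46.2 and 36.5 CPM in Ctrl_RD, where the groups overlapped through Ctrl_RD replicate 4. The log2 difference between genotypes was -0.47 on high-fat diet (SE 0.14, fold 0.723, edgeR adjusted p = 0.320), -0.27 on regular diet (SE 0.14, adjusted p = 0.834) and -0.37 averaged over both (SE 0.10, fold 0.775, adjusted p = 0.116).

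Over both diets, edgeR called 0 of the 8 members between genotypes, against 0.452% of 16168 genes, and 3 had an unadjusted p below 0.05 (Fgf12, Fgf13 and Cav3), against 11.4% of genes. DESeq2 called 2, Fgf12 (adjusted p = 0.0167) and Fgf13 (0.0411), where it called 1.73% of genes. Limma-voom with quality weights called the same 2 (0.00446 and 0.017), where it called 3.23%. Over 10 settings the adjusted p ran from 0.00446 to 0.106 for Fgf12 and from 0.017 to 0.481 for Fgf13, so the call rests on the test chosen. Within a diet edgeR called 0 of 8 members. On regular diet it called 0.0124% of all genes, and the unadjusted p was below 0.05 for 2 members and 6.11% of genes. There DESeq2 called 0 members and 0.167% of genes, and limma-voom 0 members and 0.0928%. On high-fat diet edgeR called 0.0866% of all genes, and the unadjusted p was below 0.05 for 2 members and 8.05% of genes. There DESeq2 called 0 members and 0.557% of genes, and limma-voom 0 members and 0.767%. Markers of erythroid cells stood higher on high-fat diet, with a sum of 931 to 3120 CPM in NaV1.5_HFD and 611 to 849 CPM in Ctrl_HFD. On regular diet the sums overlapped, at 445 to 2820 CPM in NaV1.5_RD and 455 to 1720 in Ctrl_RD. In either diet 0 of 5 tested genes of that list passed. Over both diets, 7 of 9 general cardiomyocyte markers were below 0 between genotypes and 2 above (median -0.14). Of 7 atrial cardiomyocyte markers 5 were below 0 and 2 above (median -0.04). All 6 macrophage markers were above 0 (median 0.23). Of 12 neuron markers 3 were tested, and all 3 were below 0 (median -0.56). All 4 tested sinoatrial node markers were also below 0 (median -0.41). In each of these lists 0 genes passed. The part of these cells in the Fgf12 and Fgf13 values was not tested.

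**Figure D1:**
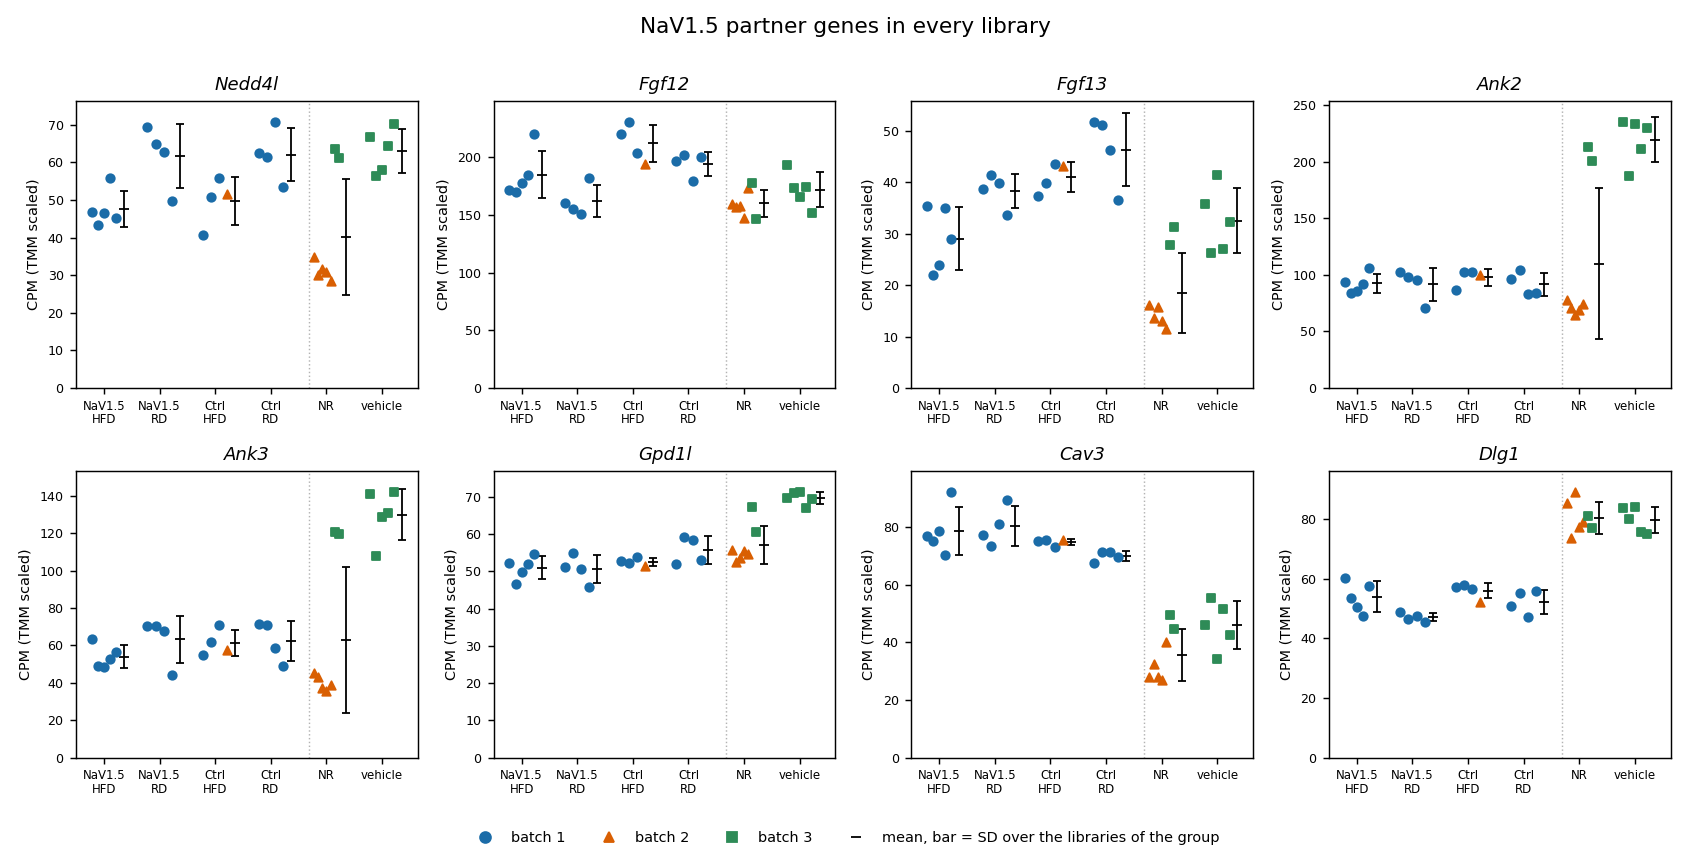
CPM with TMM scaling (vertical axes, from 0) of the 8 tested genes in every library, by group (horizontal axis), where each point is 1 library, its shape and colour give the labelled batch, and the bar gives the mean and SD of the group. Nedd4l is at 43.2 to 55.8 CPM in NaV1.5_HFD and 49.6 to 69.4 in NaV1.5_RD, and among the NR libraries those of batch 2 stand apart from those of batch 3 for Ank2, Ank3, Nedd4l and Fgf13.

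With diet Fgf12 and Fgf13 stood on opposite sides, and neither passed with edgeR. The log2 difference between high-fat and regular diet over both genotypes was 0.17 for Fgf12 (SE 0.07, edgeR adjusted p = 0.121). For Fgf13 it was -0.31 (SE 0.10, edgeR adjusted p = 0.0765). In NaV1.5 mice the diet difference of Fgf13 was -0.41 (SE 0.13, adjusted p = 0.113), with 3 of 5 NaV1.5_HFD libraries below every NaV1.5_RD library. In control mice it was -0.21 (SE 0.15, adjusted p = 0.705). Limma-voom called both genes for diet over both genotypes (adjusted p = 0.0133 for Fgf12 and 0.00446 for Fgf13) and DESeq2 called Fgf13 (0.0452). With edgeR, Fgf13 passed without Ctrl_RD replicate 4 (adjusted p = 0.0319), NaV1.5_RD replicate 4 (0.0393) or NaV1.5_HFD replicate 4 (0.0418), and Fgf12 passed without NaV1.5_RD replicate 4 (0.0364).

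Per base of counted length, Fgf12 reads outnumbered Fgf13 reads in all 29 libraries. The ratio was 4.26 ± 0.896 (SD, n = 5, range 3.15 to 5.00) in NaV1.5_HFD and 2.77 ± 0.502 (n = 4, range 2.43 to 3.50) in NaV1.5_RD. It was 3.38 ± 0.465 (n = 4, range 2.92 to 3.81) in Ctrl_HFD and 2.78 ± 0.525 (n = 4, range 2.47 to 3.56) in Ctrl_RD. In 3 of the NaV1.5_HFD libraries the ratio was above that of every other library of the diet experiment, and the other 2 lay within the range of the regular-diet libraries. The ratio is given as a description without a test.

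**Figure D2:**
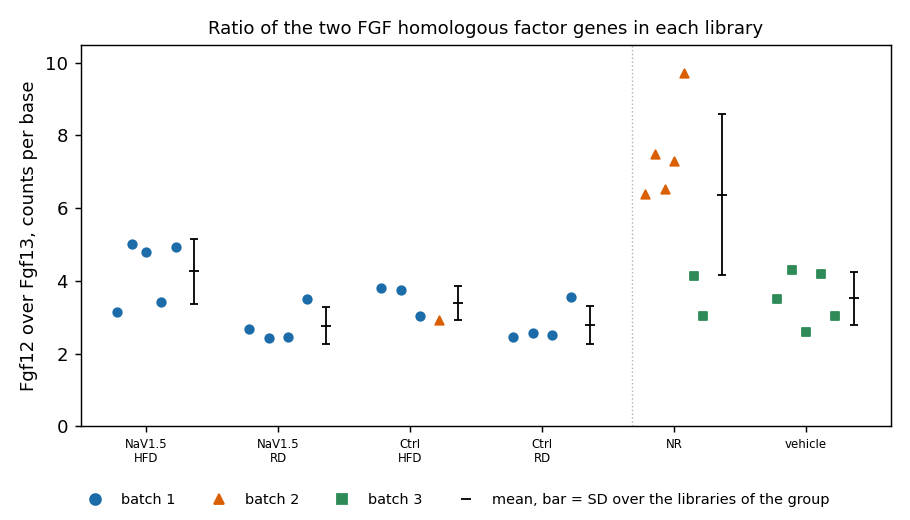
Ratio of Fgf12 to Fgf13, each as counts per base of counted length (vertical axis, from 0), in every library by group (horizontal axis), where points are libraries, shapes and colours give the labelled batch, and the bar gives the mean and SD of the group. NaV1.5_HFD averages 4.26 and NaV1.5_RD 2.77, and the NR libraries of batch 2 average 7.49 against 3.59 for those of batch 3.

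Nedd4l, which encodes the ubiquitin ligase Nedd4-2, was the member that changed with diet. It lies on chromosome 18 (64887705 to 65217828, plus strand). It had 46.8, 43.2, 46.6, 55.8 and 45.2 CPM in NaV1.5_HFD and 69.4, 64.8, 62.8 and 49.6 CPM in NaV1.5_RD. In controls it had 40.7, 50.7, 55.9 and 51.5 CPM in Ctrl_HFD and 62.5, 61.5, 70.7 and 53.6 CPM in Ctrl_RD. In each genotype the 2 groups overlapped by 1 library of the regular-diet group, NaV1.5_RD replicate 4 and Ctrl_RD replicate 4, and every other regular-diet library lay above every high-fat one. Averaged over both genotypes Nedd4l fell by 0.36 (log2) on high-fat diet (SE 0.09, fold 0.778, edgeR adjusted p = 0.0233). It was 1 of 8 members past the threshold, where 4.95% of 16168 genes passed and 2.78% passed as lower, and 4 of 8 members had an unadjusted p below 0.05 where 23.5% of genes did.

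Within a genotype the diet difference of Nedd4l was of similar size and did not pass. It was -0.38 in NaV1.5 mice (SE 0.11, fold 0.768, edgeR adjusted p = 0.0803), at 47.55 ± 4.85 CPM (SD, n = 5) in NaV1.5_HFD and 61.7 ± 8.47 CPM (n = 4) in NaV1.5_RD. In control mice it was -0.34 (SE 0.13, fold 0.788, adjusted p = 0.524), at 49.1 ± 7.75 CPM (n = 3, batch 1) in Ctrl_HFD and 62.1 ± 7.01 CPM (n = 4) in Ctrl_RD. In NaV1.5 mice edgeR called 0 of 8 members, against 1.13% of genes, and 4 members had an unadjusted p below 0.05, against 18.9%. That share of 1.13% is 182 genes, and it rests on single libraries, with 4 genes called without NaV1.5_RD replicate 3 and 1138 without NaV1.5_RD replicate 4. DESeq2 called Nedd4l there (adjusted p = 0.0342), with 5.25% of genes, and limma-voom called Nedd4l (0.00743) and Fgf13 (0.0171), with 12.1%. With edgeR Nedd4l passed without NaV1.5_RD replicate 4 (-0.47, adjusted p = 0.0189) or NaV1.5_HFD replicate 4 (-0.44, adjusted p = 0.0391). In control mice edgeR called 0 of 8 members and 0.0% of all genes, and the unadjusted p was below 0.05 for 1 member, Nedd4l, and 8.49% of genes. DESeq2 called 0 members there and 0.118% of genes, and limma-voom 0 members and 0.464%.

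The Nedd4l call over both genotypes held under all 9 other settings of scaling, filter, batch and test, with adjusted p values of 0.000836 to 0.0458. It did not hold without each of 4 libraries. Without Ctrl_RD replicate 3 the adjusted p was 0.0556, without NaV1.5_RD replicate 2 it was 0.0509, without Ctrl_HFD replicate 1 it was 0.0739 and without Ctrl_HFD replicate 2 it was 0.0573. The log2 difference stayed between -0.41 and -0.30 with any 1 of 17 libraries left out. Beside it, 4 of 4 tested white adipocyte markers were below 0 with diet and 2 of them passed as lower, with a summed level of 0.0567 to 4.30 CPM in NaV1.5_HFD and 0.288 to 17.3 in NaV1.5_RD, and of 0.526 to 4.33 in Ctrl_HFD and 3.88 to 10.7 in Ctrl_RD. Of 7 atrial cardiomyocyte markers 2 passed as lower, and of 9 general cardiomyocyte markers 0 passed. Mitochondrial genes took 20.4% to 25.27% of the counts in NaV1.5_HFD and 18.82% to 20.62% in NaV1.5_RD, and 20.39% to 26.58% in Ctrl_HFD and 18.71% to 21.89% in Ctrl_RD. Ctrl_HFD replicate 1, with the highest share at 26.58%, had the lowest Nedd4l at 40.7 CPM. The 2 high-fat libraries with the highest Nedd4l, NaV1.5_HFD replicate 4 and Ctrl_HFD replicate 3, had the lowest shares of their groups. In Ctrl_RD and in Ctrl_HFD every library followed this order, with lower Nedd4l at each higher share. Ctrl_RD ran from 70.7 CPM at 18.71% (replicate 3) to 53.6 CPM at 21.89% (replicate 4). In the NaV1.5 groups some libraries did not follow this order. NaV1.5_HFD replicate 1, at 24.28%, had 46.8 CPM, above replicate 2, which had 43.2 CPM at 23.66%. NaV1.5_RD replicate 4, at 20.14%, had the lowest Nedd4l of its group without the highest share. The part of these cells and of the mitochondrial share in the Nedd4l difference was not tested. With 1 library left out, the number of all genes called for diet over both genotypes, 800 of 16168 with all libraries, ran from 173 without Ctrl_HFD replicate 2 to 2202 without NaV1.5_RD replicate 4. The log2 difference of Nedd4l between genotypes was -0.02 (SE 0.08, edgeR adjusted p = 0.938).

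**Figure D3:**
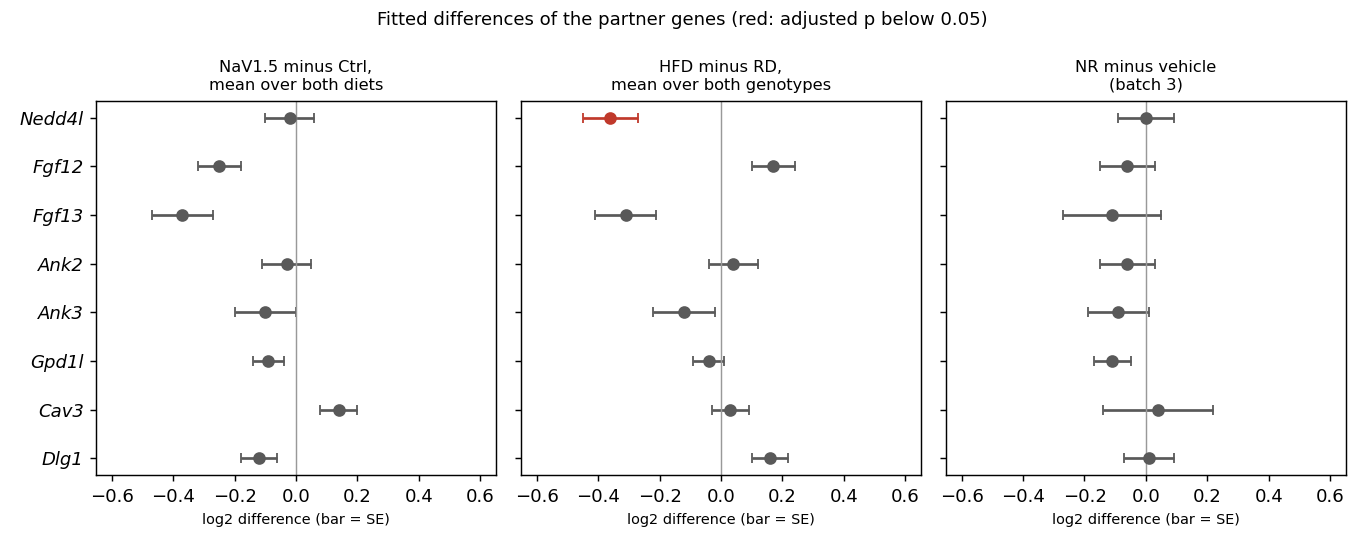
Fitted log2 difference (horizontal axes, point, with the SE as bar) of the 8 tested genes (vertical axis) between NaV1.5 and control averaged over both diets, between high-fat and regular diet averaged over both genotypes, and between NR and vehicle in batch 3. Nedd4l with diet, at -0.36, is the only red point, which marks an adjusted p below 0.05.

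Neither ankyrin gene passed with edgeR in the diet experiment. Ank3 encodes ankyrin-G, which binds NaV1.5 and holds it at the intercalated disc, and Ank2 encodes ankyrin-B, which organises ion transporters and exchangers of the myocyte. Ank2 (chromosome 3, 126921612 to 127499350, minus strand) averaged 92.4 ± 8.59 CPM (SD, n = 5) in NaV1.5_HFD, 91.5 ± 14.4 (n = 4) in NaV1.5_RD, 97.6 ± 7.63 (n = 4) in Ctrl_HFD and 91.7 ± 10.3 (n = 4) in Ctrl_RD. Its log2 differences in the diet experiment lay between -0.07 and 0.08. Ank3 (chromosome 10, 69398773 to 70027438, plus strand) averaged 54.0 ± 6.12 CPM (n = 5) in NaV1.5_HFD, 63.2 ± 12.8 (n = 4) in NaV1.5_RD, 61.3 ± 7.06 (n = 4) in Ctrl_HFD and 62.4 ± 10.7 (n = 4) in Ctrl_RD. Its diet difference was -0.24 in NaV1.5 mice (SE 0.14, edgeR adjusted p = 0.369) and 0.00 in controls (SE 0.16, adjusted p = 0.999). With 1 library left out the value in NaV1.5 mice ran from -0.37 to -0.17, and the lowest edgeR adjusted p was 0.0581, without NaV1.5_RD replicate 4 (-0.37). Over the other settings its lowest adjusted p was 0.052, with limma-voom (-0.34). NaV1.5_RD replicate 4, at 44.1 CPM of Ank3, stood well below the other 3 libraries of its group at 67.9 to 70.5 CPM. The same library was the lowest of its group for Fgf13, Ank2, Gpd1l, Nedd4l and Dlg1 and the highest for Fgf12 and Cav3. It stood apart beyond the members too. A chi-square of the counts of 2 libraries, averaged over genes, was 38.12 to 48.69 between it and the others of its group. Among those others it was 6.93 to 12.51.

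Dlg1 (chromosome 16, 31663443 to 31875129, plus strand), which encodes the scaffold SAP97 that binds the end of the channel, stood higher on high-fat diet. It had 60.4, 53.7, 50.4, 47.4 and 57.5 CPM in NaV1.5_HFD and 48.8, 46.5, 47.6 and 45.5 CPM in NaV1.5_RD. The groups overlapped by 1 library, NaV1.5_HFD replicate 4. It had 57.2, 57.8, 56.6 and 52.1 CPM in Ctrl_HFD and 50.8, 55.1, 47.1 and 55.8 CPM in Ctrl_RD, where the 3 Ctrl_HFD libraries of batch 1 lay above all 4 Ctrl_RD libraries and the 1 of batch 2 did not. Over both genotypes the log2 difference with diet was 0.16 (SE 0.06, fold 1.12, edgeR adjusted p = 0.107), which limma-voom called (adjusted p = 0.0334) and DESeq2 did not. It passed with edgeR without NaV1.5_HFD replicate 4 (0.19, adjusted p = 0.0484). For diet over both genotypes DESeq2 thus called 2 members, where it called 10% of genes, and limma-voom 4, where it called 24.1%.

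Cav3 (chromosome 6, 112459505 to 112472872, plus strand), the gene of the muscle caveolin, had 77.2, 73.5, 81.1 and 89.4 CPM in NaV1.5_RD and 67.4, 71.3, 71.3 and 69.6 CPM in Ctrl_RD. All 4 NaV1.5_RD libraries lay above all 4 Ctrl_RD libraries, and the log2 difference was 0.20 (SE 0.08, fold 1.15, edgeR adjusted p = 0.782). On high-fat diet it had 76.8, 74.9, 78.7, 70.3 and 92.2 CPM in NaV1.5_HFD and 75.2, 75.5, 73.1 and 75.4 CPM in Ctrl_HFD, which overlapped (0.08, SE 0.09, adjusted p = 0.904). The spread of Cav3 was wider in transgenic libraries, with an SD of 8.20 in NaV1.5_HFD and 6.80 in NaV1.5_RD, and 1.14 in Ctrl_HFD and 1.88 in Ctrl_RD, and the difference in spread was not tested. Cav3 was the 1 member of 8 whose library ranges did not overlap between genotypes on regular diet, where those of 3.39% of all genes did not and 1.69% were separate and higher. Fgf13 was the 1 member of 8 on high-fat diet, where those of 5.39% of genes did not overlap and 2.67% were separate and lower. For diet in control mice, over the 3 Ctrl_HFD libraries of batch 1, the ranges of 3 members (Fgf12, Cav3 and Dlg1, all higher) did not overlap, against 10.2% of genes, 5.55% higher, and for diet in NaV1.5 mice 0 of 8 did so, against 5.86%.

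Gpd1l (chromosome 9, 114899341 to 114933987, minus strand) encodes a relative of the NAD-dependent glycerol-3-phosphate dehydrogenase, and loss of its function is linked in humans to a smaller sodium current and Brugada syndrome. In the diet experiment it was at 51.0 ± 3.00 CPM (SD, n = 5) in NaV1.5_HFD, 50.7 ± 3.74 (n = 4) in NaV1.5_RD, 52.5 ± 1.025 (n = 4) in Ctrl_HFD and 55.7 ± 3.67 (n = 4) in Ctrl_RD. Its log2 difference was -0.09 between genotypes over both diets (SE 0.05, edgeR adjusted p = 0.542) and -0.04 with diet over both genotypes (SE 0.05, adjusted p = 0.721).

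Whether the effect of diet differed between genotypes was tested directly. For the interaction of genotype and diet, edgeR called 0 of 8 members and 0.0% of 16168 genes, and the unadjusted p was below 0.05 for 0 members and 2.26% of genes. DESeq2 and limma-voom called 0 members there and 0.0% of genes. The largest interaction among the members was that of Ank3, at -0.24 (SE 0.21), followed by Fgf13 at -0.20 (SE 0.20). Nedd4l had an interaction of -0.04 (SE 0.17). With SE values of 0.11 to 0.21, differences of this order were not detectable.

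Nicotinamide riboside supplies NAD, and the second experiment compared it with vehicle in NaV1.5 mice on high-fat diet. All 5 vehicle libraries are labelled batch 3, and of the 7 NR libraries 5 are labelled batch 2 and 2 batch 3, so with batch in the fit the comparison rests on 2 NR libraries and 5 vehicle libraries. Within batch 3 the groups overlapped for all 8 members. Ank2 had 213 and 200.6 CPM in NR, against 187.5, 211, 229.7, 233 and 235 CPM in vehicle. Nedd4l had 63.6 and 61.1 CPM in NR, against 56.4, 57.9, 64.5, 66.8 and 70.1 CPM in vehicle. The log2 differences of the 8 members lay between -0.11 (Fgf13, SE 0.16, and Gpd1l, SE 0.06) and 0.04 (Cav3, SE 0.18). EdgeR called 0 of 8, against 0.425% of 16482 genes, and the unadjusted p was below 0.05 for 0 members and 11.1% of genes. DESeq2 called 0 members there and 1.54% of genes, and limma-voom 0 members and 0.34%. Library ranges of 0 members were separate, against 14.0% of genes.

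The NR libraries of batch 2 had far lower levels of some members than those of batch 3. Ank2 was at 64.2 to 77.6 CPM in the 5 NR libraries of batch 2, against 187.5 to 235 CPM in vehicle. Ank3 was at 35.6 to 45.1 CPM in the same NR libraries, against 108 to 142 CPM in vehicle. Fgf13 was at 11.6 to 16.2 CPM there, against 26.2 to 41.3 CPM in vehicle, and Nedd4l at 28.6 to 35.0 CPM, against 56.4 to 70.1 CPM. Fgf12, at 148 to 174 CPM, and Dlg1, at 73.8 to 89.1 CPM, overlapped the vehicle ranges of 152 to 194 and 75.0 to 84.1 CPM. The 2 NR libraries of batch 3 lay within the vehicle range for Ank2, Ank3, Fgf13 and Nedd4l. NaV1.5_HFD, of the same genotype and diet but labelled batch 1, was at 84.3 to 106.0 CPM of Ank2 and 48.4 to 63.3 of Ank3. It was at 22.1 to 35.4 CPM of Fgf13 and 43.2 to 55.8 of Nedd4l. For Ank2 and Ank3 the batch 3 libraries thus stood above those of both other batches, and NR of batch 2 lay nearer to NaV1.5_HFD. Without a batch term edgeR called 5 of 8 members, where 26.6% of genes passed. Setting NR of batch 2 against vehicle called 6 of 8 members, all lower, from -0.37 for Gpd1l to -1.71 for Ank3, where 60.4% of 16310 genes passed. The sum of 9 general cardiomyocyte markers was 14800 to 17300 CPM in NR of batch 2 and 49900 to 50400 CPM in NR of batch 3, against 45900 to 56800 CPM in vehicle. The sum of 4 epicardial markers was 971 to 1440 CPM in NR of batch 2 and 219 to 438 CPM in NR of batch 3, against 223 to 314 CPM in vehicle. Ctrl_HFD replicate 4 is also labelled batch 2, at 99.5 CPM of Ank2, 51.5 of Nedd4l and 43.2 of Fgf13. It lay close to the batch 1 libraries of its group and above the 5 NR libraries of batch 2. Since it differs from those NR libraries in genotype and treatment, it does not show what the batch 2 label marks. NR of batch 2 and vehicle differ in both batch and treatment, which cannot be told apart between them. NR of batch 2 and NR of batch 3 share the treatment. They averaged 70.96 and 206.9 CPM of Ank2, and 80.87 and 79.05 CPM of Dlg1. Within batch 3, NR and vehicle share the batch. The part of cell content was not tested.

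With the mean of each group and batch taken off, some members varied together over the 28 libraries that have a partner in their group and batch. The values are Pearson's r of log2 CPM and are given as a description, since libraries share depth and composition. Of 28 pairs the highest was Ank2 with Ank3 at 0.86 (Spearman's rho 0.78, and 0.77 with the 2 libraries farthest from the median of Ank2 left out). Ank3 also followed Nedd4l at 0.66 (0.49 with 2 left out) and Fgf13 at 0.63 (0.68 with 2 left out). Cav3 ran against Fgf13 at -0.59 (-0.60 with 2 left out) and with Fgf12 at 0.55 (0.51 with 2 left out). Fgf12 and Fgf13 had an r of -0.14. The ratio of Ank2 to Ank3 per base ran from a mean of 1.43 in NaV1.5_RD to 1.73 in NR, while the level of both differed widely between batches. It was 1.69 ± 0.142 (SD, n = 5) in NaV1.5_HFD and 1.43 ± 0.0929 (n = 4) in NaV1.5_RD. In controls it was 1.57 ± 0.123 (n = 4) in Ctrl_HFD and 1.46 ± 0.157 (n = 4) in Ctrl_RD. The ratio was not tested.

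**Figure D4:**
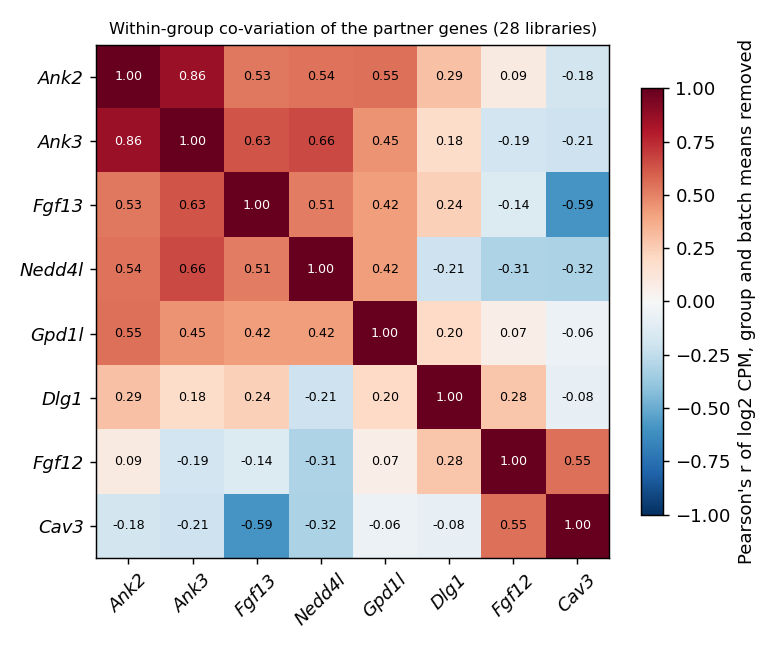
Pearson's r (colour and printed value) of log2 CPM between each pair of the 8 tested genes over 28 libraries, with the mean of each group and batch taken off. Ank2 and Ank3 form the closest pair at 0.86, and Cav3 runs against Fgf13 at -0.59.

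Among 12828 named genes with a mean of at least 1 CPM, the genes most like 7 of the members by the same measure over 28 libraries were Art5 for Fgf13 (r = 0.90, then Cry2 at 0.87 and Calcoco1 at 0.86), Smim13 for Fgf12 (0.81) and Dync1h1 for Nedd4l (0.89). They were Palld for Ank3 (0.90), Kansl3 for Ank2 (0.86, before Ank3), Hacd1 for Cav3 (0.86) and Kcnh7 for Dlg1 (0.75). Cry2 is a repressor of the circadian clock, Palld an actin-binding protein and Dync1h1 the heavy chain of dynein. Values of this size are the extremes of a search over many genes.

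A wider list of 51 genes for other partners and regulators of NaV1.5 was tested in the same fits, among them dystrophin, caveolae proteins and other ubiquitin ligases. With diet over both genotypes 5 rose and 4 fell, so 17.6% passed where 4.95% of all genes did, and 21 had an unadjusted p below 0.05, or 41.2% where 23.5% of all genes did. The median log2 difference of the list was -0.01, the same as over all genes. Dmd, the dystrophin gene, rose by 0.43 (SE 0.08, edgeR adjusted p = 0.00632). Cavin4, a muscle protein of caveolae, rose by 0.54 (SE 0.12, adjusted p = 0.0229). Wwp2, a ubiquitin ligase of the same family as Nedd4-2, fell by 0.36 (SE 0.06, adjusted p = 0.00637). Sptbn4, a beta spectrin, fell by 1.11 (SE 0.27, adjusted p = 0.0268), Usp2, a ubiquitin protease, by 0.44 (SE 0.11, adjusted p = 0.0357), and Tcap, the titin cap of the Z disc, by 0.30 (SE 0.08, adjusted p = 0.0374). In the 17 fits with 1 library left out, Dmd and Wwp2 passed in all 17, Cavin4 and Sptbn4 in 12 each, Usp2 in 8 and Tcap in 7, with adjusted p values of up to 0.108. Cav1 and Cav2, which encode caveolins and also passed with all libraries, did so in 5 of the 17 each.

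In NaV1.5 mice alone 2 of the 51 rose with diet, Dmd (0.52, SE 0.10, edgeR adjusted p = 0.0225) and Cavin4 (0.71, SE 0.17, adjusted p = 0.0444), and 2 fell, Wwp2 (-0.40, SE 0.08, adjusted p = 0.0294) and Tcap (-0.45, SE 0.10, adjusted p = 0.0418). These are 7.84% of the list, where 1.13% of all genes passed. In the 9 fits with 1 library left out Dmd passed in 5, Tcap in 4 and Cavin4 and Wwp2 in 3 each, with adjusted p values of up to 0.149. In control mice 0 of 51 passed, as did 0.0% of all genes, and 6 had an unadjusted p below 0.05 (11.8%, against 8.49% of all genes). The interaction of genotype and diet was called for 0 of the 51, with 0 at an unadjusted p below 0.05, against 2.26% of all genes. Between genotypes over both diets 0 of 51 passed with edgeR, against 0.452% of all genes, and 10 had an unadjusted p below 0.05 (19.6%, against 11.4%), with a list median of -0.03 beside 0.01 over all genes. With NR 1 of 51 passed, Cav2, a caveolin, which fell by 0.40 (SE 0.08, edgeR adjusted p = 0.0355), where 0.425% of all genes passed, and 7 had an unadjusted p below 0.05 (13.7%, against 11.1% of all genes). Cav2 passed in 5 of the 12 fits with 1 library left out, at -0.45 to -0.33 and with an adjusted p of up to 0.608. The number of all genes called with NR was 70 with all libraries and 1 without NR replicate 7.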

How the data were processed

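The 29 libraries were made with a stranded TruSeq poly-A preparation from at least 500 ng of RNA, per the labels' protocols. Each deposited file holds unnormalized counts, in which the authors assigned fragments to gene names using featureCounts (version 2.0.1 in the file headers). Those headers show that strand was ignored and that fragments with several alignments, or lying over more than 1 gene, did not count. The submitters' processing notes name FastQC 0.11.7, STAR 2.7.6a and GRCm38. Reads shared by overlapping genes are therefore missing, which decides the value of Rangrf and touches at most 1.4% of the counted bases of any other member.

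Members, lists and tests were chosen with earlier results of these data known. Groups, batches and replicate numbers come from the labels, and the number is missing from the titles of Ctrl_RD replicate 1 and NaV1.5_RD replicate 4. No 2 files of the same group agreed within sampling noise, and files of different groups were not compared. Genes were tested with edgeR 4.0.16 in R 4.3.3 (quasi-likelihood F-test, filterByExpr, TMM, robust, 2-sided) with group and batch as terms, in 1 fit of the diet experiment (17 libraries, 16168 genes) and 1 of the NR experiment (12 libraries, 16482 genes). P-values were adjusted by Benjamini-Hochberg over all genes of a fit with a threshold of 0.05. The SE is the absolute log2 difference divided by the square root of F. The edgeR fits were also run on simulated counts with known changes but no batch effect, and their outcome is not reported here. CPM used TMM factors over all 29 libraries, and levels of different genes were compared per kilobase of counted length. Log2 CPM used a prior count of 2. Promoter windows are those of RefSeq on GRCm38.p6, with windows for 7 of the 9 members and none for Ank3 and Nedd4l.

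Genes named are the members, at most 6 of the 51 other partners past the threshold per comparison by smallest p, and the genes most alike. Fgf11, Fgf14 and, for diet over both genotypes, Cav1 and Cav2 are named besides and were chosen after their values were seen. Some genes are not reported here. Alternatives were DESeq2 1.42.0 and its size factors, limma-voom 3.58.1, no filter, no batch term, 1 batch alone, all libraries in 1 fit, the replicate number as a block, GC and length offsets (98.3% of tested genes had a GC value), levels without TMM, rank correlations, and each library left out in turn. Leaving out 2 libraries from the correlations, and each library in turn for the called partners, was added after the data were seen.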

Additional observations from a re-analysis of the deposited data

Results flagged for a closer look

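Within groups of 4 to 7 libraries, the highest or lowest library of each of the 8 tested genes was compared with the others by Dixon's criterion, over 48 groups, where chance alone flags about 1 in 20 groups. In 3 groups a library stood apart. Ank3 was at 44.1 CPM in NaV1.5_RD replicate 4 and at 67.9 to 70.5 CPM in the other NaV1.5_RD libraries. Without that library the diet difference of Nedd4l in NaV1.5 mice was -0.47 (edgeR adjusted p = 0.0189) and passed. Nedd4l was at 55.8 CPM in NaV1.5_HFD replicate 4 and at 43.2 to 46.8 CPM in the other NaV1.5_HFD libraries, and without it the same difference was -0.44 (adjusted p = 0.0391). Cav3 was at 73.1 CPM in Ctrl_HFD replicate 3 and at 75.2 to 75.5 CPM in the other Ctrl_HFD libraries, a gap of small size in a narrow group.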

How the results depend on the processing

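The alternatives other than leaving out each library in turn include some that used only part of the libraries. Over them, 538 values of single genes kept their direction and side of the threshold. A further 28 passed only in the alternative with the same sign and 18 changed sign. Of those 18, 2 also passed, Cav3 with NR in the replicate block (edgeR adjusted p = 0.00365) and for NR of batch 2 (0.0041). With 1 library left out these were 735, 9 and 28, and 4 values, all of Nedd4l with diet over both genotypes, no longer passed. The causes were not tested.

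The number of members called between genotypes over both diets was 0, and 2 with DESeq2 and limma-voom each, and 0 to 1 with a library left out. For diet in NaV1.5 mice it was 0, and 1 with all libraries in 1 fit, with DESeq2 and with GC and length offsets, 2 with limma-voom and 0 to 1 with a library left out. For diet over both genotypes it was 1, and 2 with DESeq2, 4 with limma-voom and 0 to 3 with a library left out. The 3 were Fgf12, Fgf13 and Nedd4l without NaV1.5_RD replicate 4. For NR it was 0, and 5 without a batch term, 6 with the replicate block and 6 for NR of batch 2, and none of these 3 settings separates batch from treatment.

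Signs changed for values near 0. With GC and length offsets Nedd4l was 0.04 and 0.02 between genotypes (regular diet, both diets), Ank2 0.02 between genotypes over both diets and 0.01 with NR, Cav3 0.11 with diet in NaV1.5 mice and Fgf12 -0.02 in the interaction. With limma-voom Nedd4l was 0.04 between genotypes on regular diet and Ank2 -0.08 with diet in NaV1.5 mice. With all libraries in 1 fit Dlg1 was -0.01 with NR. Without a batch term Cav3 was -0.36 with NR, and for NR of batch 2 it was -0.58. Same-numbered libraries correlated at -0.08 to 0.17, so the numbers do not pair them. With the replicate block Nedd4l was 0.13 and 0.05 between genotypes (regular diet, both diets), Ank2 0.01 between genotypes, -0.14 with diet in NaV1.5 mice and -0.02 with diet over both genotypes, Fgf12 -0.04 in the interaction and Cav3 -0.58 with NR.

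With a library left out, ranges that cross 0 were -0.08 to 0.16 for Ank3 and -0.07 to 0.08 for Nedd4l between genotypes on regular diet, -0.16 to 0.05 for Nedd4l on high-fat diet, and -0.09 to 0.02 for Nedd4l and -0.07 to 0.02 for Ank2 over both. With diet they were -0.10 to 0.07 for Ank2 and -0.10 to 0.02 for Cav3 in NaV1.5 mice, and -0.01 to 0.08 for Ank2 and -0.01 to 0.05 for Cav3 over both genotypes. In the interaction they were -0.16 to 0.06 for Nedd4l and -0.05 to 0.08 for Fgf12, and with NR -0.04 to 0.13 for Cav3, -0.01 to 0.04 for Dlg1 and -0.19 to 0.06 for Fgf12.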
